A study of Homo sapiens with 12 samples.

Results

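Long noncoding RNAs (lncRNAs) enriched in prostate or retained in the nucleus were followed in C4.2B, a derivative of the LNCaP prostate cancer line that grows after castration. The 9 genes, taken by symbol from the 58735 genes of the count table, were PCA3, PCGEM1, PCAT1, PCAT6, DRAIC, NEAT1, MALAT1, H19 and MEG3. Polyadenylated RNA was sequenced from 4 arms of 3 libraries (A, B and C, from triplicate plates). The arms were vehicle (DMSO), the AKT inhibitor ipatasertib at 0.25 µM (AKTi), the EZH2 inhibitor tazemetostat at 1 µM (EZH2i) and both agents (combination). EZH2i and combination cells received tazemetostat for 6 days beforehand, and all arms shared medium with charcoal-stripped serum, which holds little androgen, for the last 24 hours. One cell line was used, so the replicates measure the spread between plates and not between lines or donors.

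An lncRNA is a transcript that is longer than most small RNAs and codes for no known protein. MALAT1 is a component of nuclear speckles, bodies enriched in splicing factors, and NEAT1 is the RNA scaffold of paraspeckles, which hold RNA-binding proteins. PCA3 is a urinary marker of prostate cancer transcribed antisense within PRUNE2. PCGEM1 is a prostate-enriched RNA, PCAT1 and PCAT6 are prostate cancer associated transcripts, and DRAIC was named as an RNA downregulated in androgen-independent cells. H19 and MEG3 are imprinted, meaning that only the copy from 1 parent is normally transcribed. EZH2 is the enzyme of the PRC2 complex that methylates histone H3 at repressed genes, and AKT is the kinase downstream of PI3K that keeps FOXO transcription factors out of the nucleus.

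MALAT1 ends in a triple helix and not in an ordinary poly(A) tail, and the long isoform of NEAT1 has the same kind of end, so selection on poly(A) captures them in part. The counts are per gene and do not separate isoforms. In bulk samples, fewer cells of a type and less RNA per cell cannot be told apart.

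The promoters of 3 members that changed are shown because they differ in base composition and in the motifs they hold. They are RefSeq sequences of GRCh38.p14 from 250 bases before to 50 bases after the first start site listed. Promoters of 7 of the 9 members were searched, and those of NEAT1 and PCAT1 were not. PCAT6 lies at chr1:202810704-202811003, MALAT1 at chr11:65497488-65497787 and DRAIC at chr15:69561470-69561769, all on the plus strand. The DRAIC start shown lies 98.7 kb inside the gene model on which reads were counted. Capitals mark the only match to any of the motifs searched.

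PCAT6: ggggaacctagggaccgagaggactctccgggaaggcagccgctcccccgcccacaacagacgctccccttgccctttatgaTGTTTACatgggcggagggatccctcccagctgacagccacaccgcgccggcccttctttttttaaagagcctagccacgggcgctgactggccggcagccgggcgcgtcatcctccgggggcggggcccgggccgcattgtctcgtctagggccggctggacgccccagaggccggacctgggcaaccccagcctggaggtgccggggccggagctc

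MALAT1: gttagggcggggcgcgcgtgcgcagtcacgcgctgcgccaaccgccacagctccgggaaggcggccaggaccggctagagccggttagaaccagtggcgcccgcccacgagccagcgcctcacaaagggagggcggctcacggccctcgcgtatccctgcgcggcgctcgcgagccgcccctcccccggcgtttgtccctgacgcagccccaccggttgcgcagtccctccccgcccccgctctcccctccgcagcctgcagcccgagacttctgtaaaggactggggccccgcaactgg

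DRAIC: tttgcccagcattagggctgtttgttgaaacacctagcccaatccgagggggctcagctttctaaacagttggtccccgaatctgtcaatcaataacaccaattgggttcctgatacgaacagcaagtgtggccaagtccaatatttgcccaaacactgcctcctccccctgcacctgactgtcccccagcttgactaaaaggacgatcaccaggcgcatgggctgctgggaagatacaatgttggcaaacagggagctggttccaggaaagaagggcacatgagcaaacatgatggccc

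The motifs searched on both strands were the E-box CACGTG, the FOXO site GTAAACA, the hypoxia response core ACGTG, which every E-box contains, and the androgen receptor half-site AGAACA. The PCAT6 promoter held 1 FOXO site, on the minus strand. Its marked stretch, read as printed, begins at position -168 from the start. Of 35116 promoters of this length, 3.42% held this motif. The MALAT1 and DRAIC windows shown held none of the 4 motifs. A second MALAT1 start, 1.36 kb inside the gene model, had 14 CpGs and 1 androgen receptor half-site, at position -41 by the same count. The PCGEM1 and H19 windows each held 1 androgen receptor half-site, at -191 and -117. The MEG3 windows, 46.7 kb inside its gene model, held none of the 4 motifs. Among all promoters, 7.26% held the E-box, 21.4% the hypoxia core and 14.8% the androgen receptor half-site. The CpG count was 37 at the first MALAT1 start, 25 in PCAT6 and 5 in DRAIC, against a median of 14 over all promoters. The first PCA3 start listed, 72.5 kb inside its gene model, had 3 CpGs and 1 hypoxia core. A match is a description of letters and was not tested for binding.

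Totals were 14133755 to 22276417 counts per library. Of the members, 6 passed the filter on low counts (PCA3, PCAT1, PCAT6, DRAIC, NEAT1 and MALAT1) among 16646 genes tested, of which 2365 have an lncRNA biotype. The libraries carried the markers of luminal prostate cells. KLK3 had 18136 to 78132 counts, and all 9 luminal markers listed were tested. Their summed level was 3831 to 3957 CPM in DMSO and 8938 to 9151 in the combination. CPM are counts scaled to the library total of tested genes multiplied by a scaling factor (TMM). Of the basal markers, KRT5 was at 0 in every library, KRT14 had 0 to 7 counts and TP63 0 to 1. Of the leukocyte markers, CD3E was at 0 in every library, PTPRC had 0 to 20 counts and CD68 1 to 9. Of the neuroendocrine markers, SYP had 18 to 44 counts, CHGA 0 to 6 and NCAM1 0 to 15. COL1A1, a collagen of stromal cells that cultured cells can also express, had 59 to 383 counts. The summed stromal and endothelial markers were 4.32 to 6.87 CPM in DMSO, 4.27 to 6.39 CPM with AKTi, 15.2 to 17.96 CPM with EZH2i and 9.91 to 15.1 CPM in the combination, and their part in the results was not tested.

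Tested with edgeR's quasi-likelihood method on all 12 libraries with Benjamini-Hochberg adjustment over all 16646 genes, all 6 members changed with the combination relative to DMSO, 5 upward and 1 downward. Over all genes 73.2% passed in this comparison, and among lncRNA biotypes 42.3% were higher and 12.7% lower. EZH2i changed 5 of 6 members, 4 higher and 1 lower, where 64.1% of all genes passed and 29.6% and 10.6% of lncRNA biotypes were higher and lower. AKTi raised 2 of 6 and lowered none, where 42.5% of all genes passed and 12.9% and 4.9% of lncRNA biotypes were higher and lower. The counts of members lie on so few genes that a share near these backgrounds is not a result about the group. The median log2 fold change of the 6 members was 0.17 with AKTi, 1.14 with EZH2i and 1.60 with the combination, beside 0.16, 0.32 and 0.53 over lncRNA biotypes and 0.01, 0.03 and 0.06 over all genes. Scaling by library size alone moved the median of all genes to 0.17 with EZH2i and 0.26 with the combination, and no call of a member against DMSO with EZH2i or the combination changed. These comparisons share the DMSO libraries.

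**Figure D1:**
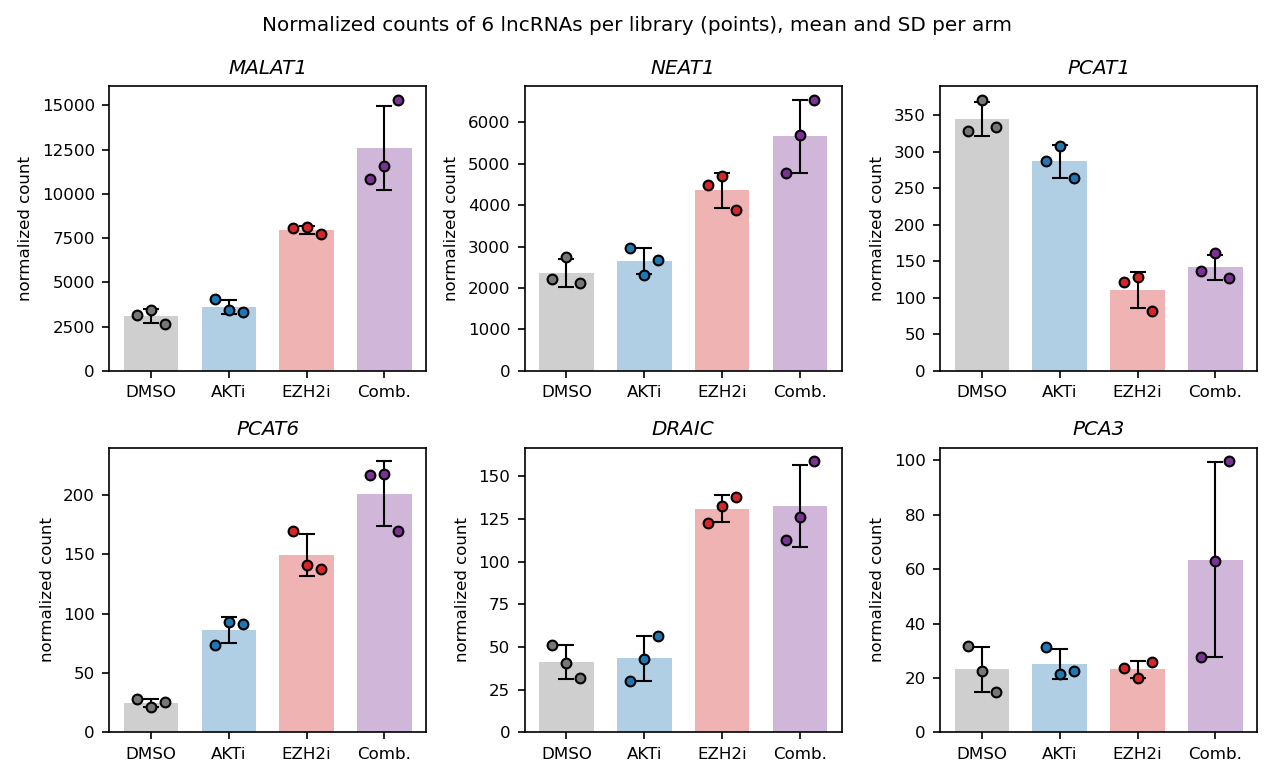
DESeq2-normalized counts (vertical axes, each starting at 0) of the 6 members that passed the filter in each library (points) of the 4 arms, with bars at the arm mean and whiskers at 1 SD (n = 3). MALAT1, NEAT1, PCAT6 and DRAIC sat higher in every EZH2i and combination library than in any DMSO library, PCAT1 sat lower, and the 3 PCA3 values of the combination spread from 27.9 to 99.8.

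MALAT1, the nuclear speckle RNA, is at chr11:65497688-65506516 on the plus strand (hg38, as for all gene positions given). It had 3180, 3430 and 2651 normalized counts in DMSO A, B and C. AKTi libraries had 4060, 3443 and 3335. EZH2i libraries had 8091, 8103 and 7713, and combination libraries had 10865, 11569 and 15324. The arms stood in the order DMSO, AKTi, EZH2i, combination, with overlap between the first pair only. The log2 fold change was 1.38 (SE 0.09, adjusted p = 5.3e-16, edgeR) with EZH2i and 2.05 (SE 0.09, adjusted p = 2.35e-21, edgeR) with the combination, that is 2.60-fold and 4.14-fold. Combination exceeded EZH2i by 0.67 (95% interval 0.49 to 0.85, adjusted p = 4.07e-08, edgeR). AKTi alone gave 0.24 (adjusted p = 0.0307, edgeR), a call lost with DESeq2 (adjusted p = 0.238), without DMSO C (0.27) and without AKTi A (0.271). The joint change was larger than the sum of the single-agent log2 changes by 0.43 (SE 0.13, adjusted p = 0.00809, edgeR), where 28.2% of all genes passed this interaction test and 4.14% and 4.74% of lncRNA biotypes passed with a positive and a negative sign. Without combination C the excess was 0.26 (adjusted p = 0.0749) and the change against DMSO 1.88.

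NEAT1, the paraspeckle scaffold, lies upstream on the same strand at chr11:65422774-65445540. It had 2228, 2740 and 2124 normalized counts in DMSO and 2956, 2327 and 2672 with AKTi. It had 4489, 4708 and 3885 with EZH2i and 4782, 5686 and 6543 with the combination. Only the DMSO and AKTi ranges overlapped. NEAT1 rose by 0.89 (SE 0.09, adjusted p = 6.82e-11, edgeR) with EZH2i and by 1.28 (SE 0.09, adjusted p = 2.53e-15, edgeR) with the combination. The combination exceeded EZH2i by 0.39 (interval 0.21 to 0.57, adjusted p = 0.000357, edgeR). The AKTi value of 0.18 (interval -0.01 to 0.37) missed the threshold at an adjusted p of 0.121, and passed it under several alternatives. These were library size scaling (0.0404), upper-quartile scaling (0.0488), the filter of 1 count (0.037), only the libraries compared (0.0361), and the fits without DMSO B (0.0209) or AKTi B (0.0469). The interaction was 0.21 (adjusted p = 0.232).

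MALAT1 and NEAT1 together took 0.0271% to 0.0354% of counts in DMSO and 0.101% to 0.148% in the combination. The share of all lncRNA biotypes went from 1.10% to 1.18% in DMSO to 1.69% to 1.83% in the combination. Combination C was the highest library for both shares and also for small RNA biotypes (0.021%). The mitochondrial share was 2.37% to 3.36% in DMSO, 3.93% to 4.29% with AKTi, 4.35% to 5.31% with EZH2i and 5.14% to 5.64% in the combination. The part of these shares in the results was not tested. Without combination C, MALAT1, NEAT1 and DRAIC still passed in the combination against DMSO.

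The coding gene before this pair had smaller estimates. FRMD8, 9.25 kb before NEAT1, had log2 fold changes of 0.06, 0.13 and -0.11 with AKTi, EZH2i and the combination, none past the threshold, although the EZH2i value was called with library size scaling (0.27) and upper-quartile scaling (0.25). The difference between the lncRNAs and this neighbour was not itself tested.

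PCAT1, at chr8:126556323-127419050 on the plus strand, was the only tested member that fell. Its gene model spans 862.7 kb of the gene desert before MYC and overlaps 11 other annotated genes. It had 329, 372 and 334 normalized counts in DMSO and 288, 309 and 264 with AKTi. It had 122, 128 and 82.7 with EZH2i and 136, 161 and 128 with the combination. All 6 libraries given tazemetostat were below all 6 others. The log2 fold change was -1.64 (SE 0.14, adjusted p = 6.04e-13, edgeR) with EZH2i and -1.26 (SE 0.13, adjusted p = 1.22e-10, edgeR) with the combination. With AKTi it was -0.25 (interval -0.51 to 0.00, adjusted p = 0.11), although the libraries of these arms did not overlap. The combination was 0.38 above EZH2i (adjusted p = 0.0326, edgeR) with overlapping libraries. The call was lost with the filter of 1 count (0.0605), with only the libraries compared (0.0546), and without AKTi A (0.0574), EZH2i C (0.286) or combination B (0.177). The interaction was 0.63 (SE 0.19, adjusted p = 0.0124, edgeR), and was lost without EZH2i C (0.0643) or combination B (0.0523).

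MYC, the growth-promoting transcription factor, starts 316 kb after the PCAT1 gene model and was measured beside it. MYC had mean normalized counts of 4024 ± 149 (SD, n = 3) in DMSO, 6549 ± 284 with AKTi, 1545 with EZH2i and 3185 with the combination. It rose by 0.71 with AKTi, and fell by 1.37 with EZH2i and by 0.32 with the combination, all past the threshold. PCAT1 therefore shared its direction with MYC in both arms given tazemetostat, while the AKTi estimates had opposite signs and that of PCAT1 was not called. TRIB1, a pseudokinase gene before PCAT1, rose in all 3 arms (0.46, 0.66 and 1.12). FAM84B, which overlaps the PCAT1 model on the minus strand, had -0.17, -0.27 and 0.41, each called. Library size scaling ended its calls with AKTi and EZH2i. CASC8 and POU5F1B, which also overlap the PCAT1 model, passed in none of the 3 comparisons against DMSO. PVT1, the lncRNA gene after MYC, which was chosen for naming after its values were seen, had means of 349, 457, 186 and 316 normalized counts in the same order of arms. Its log2 fold changes were 0.40 with AKTi and -0.90 with EZH2i, both called, and -0.12 with the combination, not called (adjusted p = 0.268, edgeR).

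PCAT6, at chr1:202810954-202812156 on the plus strand, changed by the largest log2 value among the members in each arm against DMSO. It had 28.4, 21.5 and 25.3 normalized counts in DMSO and 73.5, 93.4 and 91.4 with AKTi. It had 170, 141 and 138 with EZH2i and 217, 218 and 170 with the combination. No treated library overlapped DMSO, and AKTi and EZH2i did not overlap each other. The log2 fold changes were 1.78 (SE 0.21, adjusted p = 8.43e-09, edgeR) with AKTi, 2.57 (SE 0.19, adjusted p = 3.29e-14, edgeR) with EZH2i and 3.02 (SE 0.19, adjusted p = 8.19e-17, edgeR) with the combination, or 3.44-, 5.94- and 8.09-fold. Of the 2365 lncRNA genes tested, 50, 98 and 105 had a higher log2 fold change. The combination exceeded EZH2i by 0.44 (interval 0.15 to 0.74, adjusted p = 0.0125, edgeR), with overlapping libraries, and the call was lost without any 1 of EZH2i B, EZH2i C, combination A or combination B (adjusted p 0.0502 to 0.0664). The joint change was smaller than the sum of the single-agent changes by 1.34 on the log2 scale (interaction -1.34, SE 0.26, adjusted p = 0.000121, edgeR).

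KDM5B, a histone H3 lysine demethylase gene on the opposite strand 1.48 kb away, moved in the same direction as PCAT6 in all 3 arms. KDM5B had means of 1148 ± 85.5 normalized counts in DMSO, 1543 ± 14.1 with AKTi, 3066 ± 109 with EZH2i and 3548 ± 84.3 with the combination (SD, n = 3). Its log2 fold changes were 0.43, 1.42 and 1.64, each called and each smaller than that of PCAT6 in the same arm. RABIF, on the other side, had -0.22, 0.29 and 0.20, of which the EZH2i value passed (adjusted p = 0.0113, edgeR), and with either other scaling the combination value passed too.

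**Figure D2:**
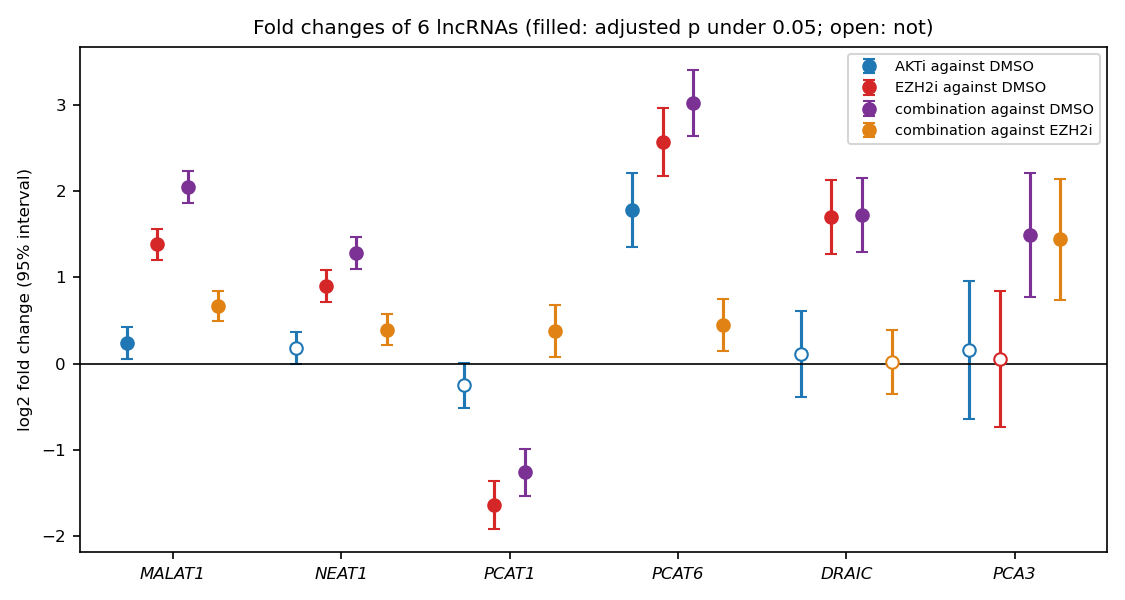
Log2 fold change (vertical axis) with its 95% interval for the 6 tested members in 4 comparisons, filled where the adjusted p was under 0.05. PCAT1 lies below 0 in the comparisons with DMSO, DRAIC has 1.70 and 1.72 with EZH2i and the combination and 0.02 between these arms, and PCA3 is filled only where the combination is the first arm.

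DRAIC, at chr15:69463026-69843120 on the plus strand, changed in the arms given tazemetostat by like amounts. It had 51.4, 40.6 and 31.6 normalized counts in DMSO and 30.3, 43.3 and 56.4 with AKTi. It had 122, 133 and 138 with EZH2i and 112, 126 and 159 with the combination. The first pair of arms overlapped, as did the last pair, and the pairs stood apart from each other. The log2 fold change was 1.70 (SE 0.21, adjusted p = 7e-09, edgeR) with EZH2i and 1.72 (SE 0.21, adjusted p = 3.65e-09, edgeR) with the combination. Combination and EZH2i differed by 0.02, with an interval of -0.35 to 0.39, and AKTi and DMSO by 0.11, with an interval of -0.39 to 0.60. These intervals leave room for differences of either sign. TLE3, a Groucho corepressor gene 205 kb after DRAIC, rose by 0.22, 0.87 and 0.99 with AKTi, EZH2i and the combination, and RPLP1, a ribosomal protein gene 6.83 kb before the gene model, fell by 0.31 and 0.46 with EZH2i and the combination.

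PCA3, at chr9:76691980-76863307 on the plus strand, was called only in comparisons of the combination. It had 31.7, 22.7 and 15.02 normalized counts in DMSO and 31.5, 21.6 and 22.6 with AKTi. It had 23.8, 19.9 and 26.1 with EZH2i and 27.9, 63.0 and 99.8 with the combination. Combination B and C were above all other libraries, and combination A lay within the DMSO range. PCA3 was higher with the combination than in DMSO by 1.49 (SE 0.35, adjusted p = 0.000293, edgeR), than with AKTi by 1.33 (adjusted p = 0.00128, edgeR) and than with EZH2i by 1.44 (adjusted p = 0.000718, edgeR). Without combination C these became 1.00 (adjusted p = 0.0172), 0.84 (0.0513, not called) and 0.95 (0.036). EZH2i alone gave 0.05 (interval -0.73 to 0.84) and AKTi alone 0.16 (interval -0.64 to 0.96). The interaction of 1.28 missed the threshold (adjusted p = 0.0667), and among the alternatives its adjusted p ranged from 0.009 without combination A to 0.3 without combination C.

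PRUNE2, on the minus strand across PCA3, was far more abundant, at 10284 ± 448 normalized counts in DMSO, 16123 ± 726 with AKTi, 10553 ± 871 with EZH2i and 19376 ± 756 with the combination (SD, n = 3). It rose by 0.66 with AKTi and by 0.93 with the combination, and the EZH2i value of 0.05 was not called (0.19 and called with library size scaling). PCA3 counts amounted to 0.129% to 0.317% of PRUNE2 counts in the 9 libraries outside the combination and to 0.142%, 0.340% and 0.499% in combination A, B and C. The strand setting of the counting is not given in the sources used here, so reads of PRUNE2 could in part be counted for PCA3 or the reverse. AL359314.1, another gene model inside PCA3, had 11 counts in combination C and 0 to 3 in the other libraries. GCNT1, a glycosyltransferase gene 40.8 kb before PCA3, fell by 0.41 with AKTi and rose by 0.22 and 0.35 in the other arms.

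**Figure D3:**
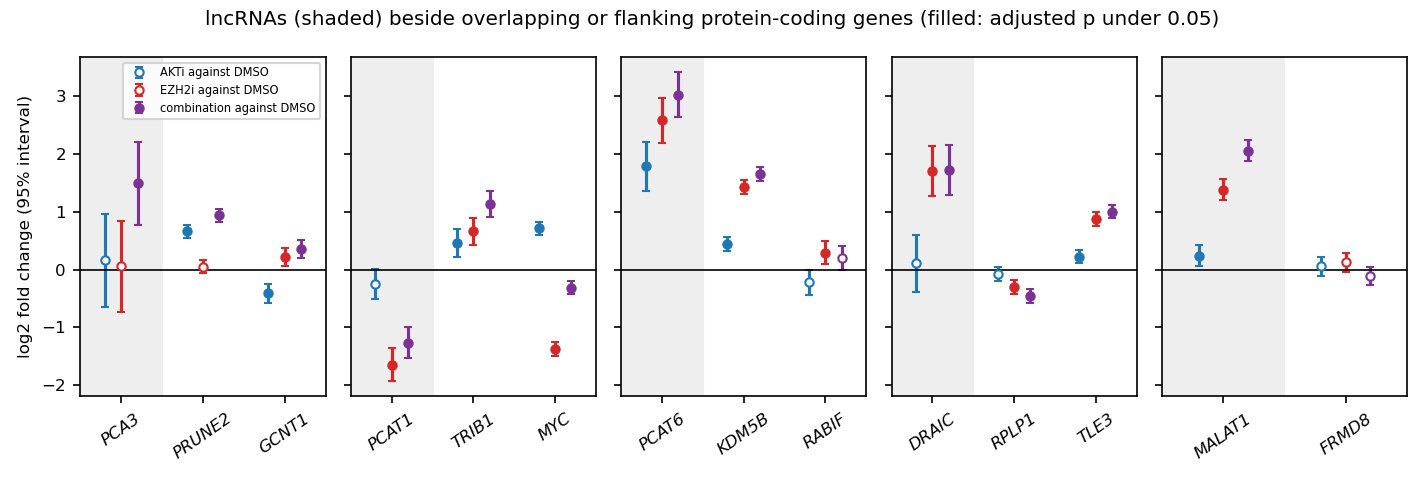
Log2 fold change against DMSO (vertical axis) with its 95% interval for 5 members (shaded) and protein-coding genes overlapping or flanking them, filled where the adjusted p was under 0.05. KDM5B is filled above 0 in all 3 arms beside PCAT6, MYC is above 0 with AKTi and below 0 in the other arms beside PCAT1, and FRMD8 is open throughout beside MALAT1 in the main test, while its EZH2i value was called with the other scalings.

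The other 3 members had too few counts for the fit. PCGEM1, at chr2:192749845-192776899, had 4 counts in combination B and 0 in the other 11 libraries (exact permutation test against DMSO, two-sided, p = 1). H19, at chr11:1995176-2001470 on the minus strand, had 4, 0 and 2 counts in DMSO, 5, 1 and 5 with AKTi, 0, 0 and 2 with EZH2i and 0 in each combination library. Exact two-sided permutation tests of H19 against DMSO gave p = 0.3 with AKTi, 0.7 with EZH2i and 0.4 with the combination, where 3 against 3 libraries allow no p below 0.1. MEG3, at chr14:100779410-100861031, had 0 counts in all 12 libraries. A count of 0 allows up to 3 counts, or 0.135 to 0.212 CPM depending on the library, by counting error alone.

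The nearest coding genes of these 3 differed. TMEFF2, a membrane protein gene 554 kb before PCGEM1, had 0 to 4 counts in DMSO and 16 to 26 with EZH2i, and rose by 3.45 and 3.79 with EZH2i and the combination (adjusted p = 2.94e-05 and 3.45e-06, edgeR), values that rest on a DMSO arm near 0. MRPL23, next to H19, fell by 0.63 and 1.54 in these arms. IGF2, the imprinted partner of H19, had at most 1 count in any library, and DLK1, beside MEG3, had none.

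Levels of different genes were compared per length, as TPM (counts scaled by gene length and by library), with the length deposited for each gene. In DMSO, MALAT1 was at 70.1 ± 7.73 TPM, NEAT1 at 20.8 ± 2.55, PCAT6 at 5.67 ± 0.82, PCAT1 at 4.11 ± 0.23, DRAIC at 0.448 ± 0.10 and PCA3 at 0.327 ± 0.12 (SD, n = 3). DRAIC and PCA3 did not differ beyond their spread. This order rests on the gene length, since with the length of the canonical GENCODE transcript PCAT1 came first at 43.2 TPM, ahead of MALAT1 at 33.5, and only PCA3 kept its place. The deposited length is 16848 bases for PCAT1 and its canonical transcript has 906. In the combination, mean levels by the deposited length were 336 for MALAT1, 58.7 for NEAT1, 53.0 for PCAT6, 1.97 for PCAT1, 1.69 for DRAIC and 1.06 for PCA3. NEAT1 and PCAT6 overlapped there, with 48.2 to 69.4 and 46.0 to 57.2 TPM.

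**Figure D4:**
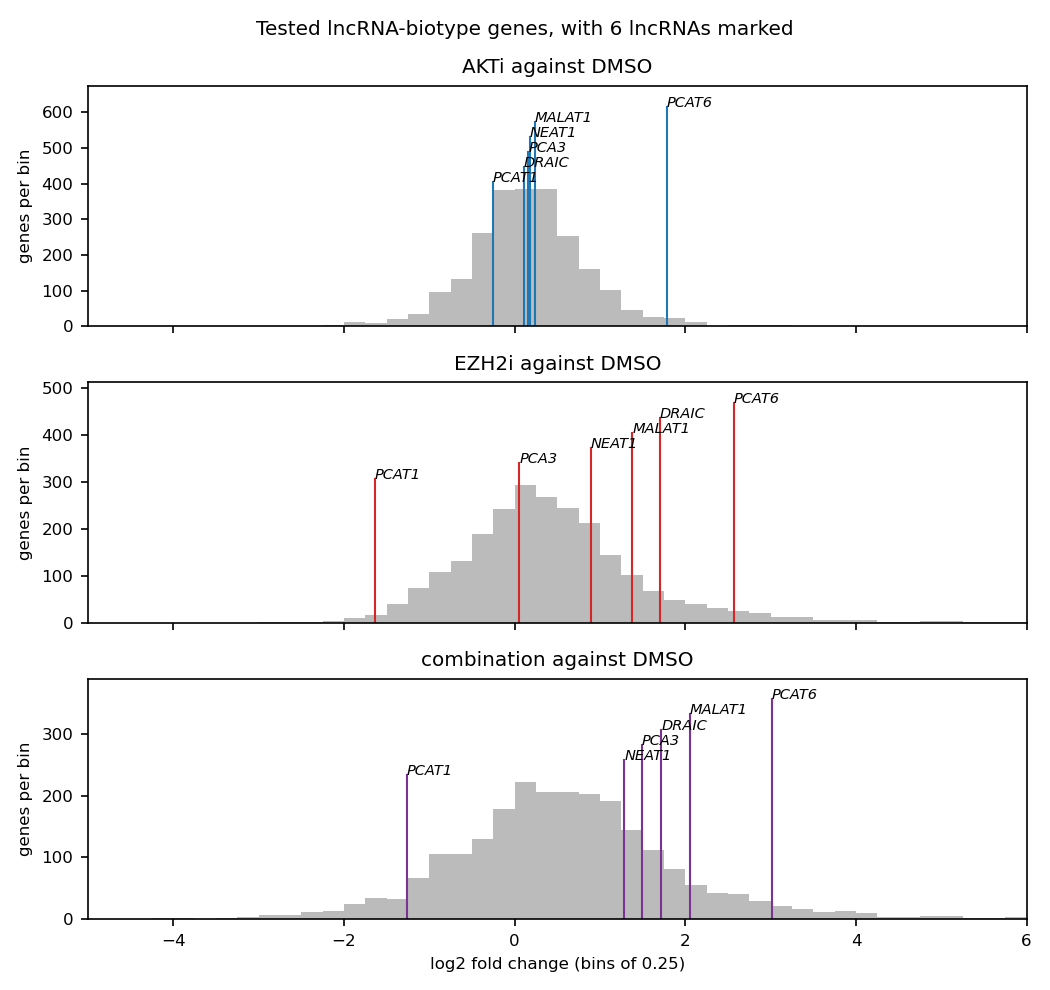
Number of the 2365 tested lncRNA-biotype genes (vertical axis) per bin of 0.25 of log2 fold change against DMSO (horizontal axis, drawn from -5 to 6) in the 3 treated arms, with vertical lines at the 6 members. PCAT6 lies far to the right in each panel and PCAT1 far to the left with EZH2i, where 2338 genes had a higher value, while the AKTi lines of the other members lie in the middle of the bars.

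Other lncRNAs and the proteins of the bodies that hold NEAT1 and MALAT1 were read from lists. Of 8 other prostate cancer lncRNAs tested (17 listed), 6 were higher, 1 lower and 1 not called with the combination against DMSO, with a median of 0.84. SOCS2-AS1, an androgen-regulated antisense RNA, rose by 4.24 (means of 3.44 and 64.0 normalized counts), PCAT7 by 1.47 and CTBP1-AS by 1.28, and PCAT19 fell by 0.87. AKTi raised 4 of these 8 and lowered none, and EZH2i raised 5 and lowered 1. Among all lncRNA biotypes the shares raised were 12.9% with AKTi, 29.6% with EZH2i and 42.3% with the combination. Of 14 widely expressed lncRNAs tested, 6 were higher, 3 lower and 5 not called with the combination, with a median of 0.11. Among all lncRNA biotypes 12.7% were lower, beside the 42.3% raised. These counts on few genes are not read as a result about the list. HOTAIRM1, an RNA of the HOXA cluster, rose by 1.59, FTX by 1.03 and NORAD, a cytoplasmic RNA that binds Pumilio proteins, by 0.75. MIR17HG, host of the miR-17 cluster, fell by 2.46, FIRRE by 0.78 and OIP5-AS1 by 0.23, the last call being lost with both other scalings.

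Messenger RNAs of most paraspeckle proteins were lower in the arm in which NEAT1 was highest. Of 18 tested, 14 fell, 1 rose and 3 were not called with the combination, with a median of -0.56. DAZAP1 fell by 1.61 and RBM14 by 1.26, both RNA-binding proteins. MATR3, the 1 that rose (0.60), is listed under 2 gene IDs whose reads may be split, and its value is uncertain. With EZH2i 13 of 18 fell and none rose, with a median of -0.29, and with AKTi 12 fell and none rose, with a median of -0.22, where 31.5% and 21.9% of all genes were lower in these comparisons. With library size scaling the numbers lower and higher were 12 and 3 with the combination, 9 and 3 with EZH2i and 11 and 2 with AKTi, with medians of -0.36, -0.15 and -0.16. Of 14 nuclear speckle proteins, 11 fell and 3 rose with the combination, with a median of -0.84 (10 and 3, and -0.64, with library size scaling). The splicing factors SRSF2, SRSF7 and SRSF3 fell by 2.32, 2.20 and 1.90, while the kinase CLK1 rose by 0.37 and the large scaffold proteins SRRM2 and SON by 0.28 and 0.12. Over all genes tested the median was 0.06 and 35.2% were lower.

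Of 15 genes of the androgen receptor list, 12 rose, 2 fell and 1 was not called with the combination, with a median of 2.10, where 38% of all genes rose and 35.2% fell. AKTi alone raised 13 and lowered 1, with a median of 0.91, where 20.6% of all genes rose and 21.9% fell. EZH2i alone also raised 13 and lowered 1, with a median of 1.76, where 32.6% of all genes rose and 31.5% fell. With the combination ACP3, prostatic acid phosphatase, rose by 5.65, TMPRSS2 by 3.62 and NDRG1 by 2.96, while FKBP5 fell by 1.65 and HOXB13 by 0.53. HOXB13 rose by 0.41 with AKTi, and its EZH2i value of 0.10 was called only with the other scalings. Among 14 imprinted genes tested of 22 listed, 6 rose and 6 fell with the combination, shares near those of all genes. Their median was -0.04, and it was 0.15 with library size scaling and 0.14 with upper-quartile scaling. DIO3, the deiodinase gene of the same imprinted domain as MEG3, rose by 5.52, from a mean of 5.004 to 216 normalized counts, while MEG3 and, named after their values were seen, MEG8 and MEG9 were, like DLK1, at 0 in every library. CDKN1C, a cell cycle inhibitor gene of the wider imprinted region of chromosome 11 that also holds H19, rose by 3.85 (means of 17.0 and 238). SGCE rose by 1.90, and PHLDA2, MEST and NNAT fell by 2.87, 1.21 and 1.12, the NNAT call being lost with both other scalings.

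Patterns over the 12 libraries were compared by Pearson's r of log2 CPM with 12856 genes, as a description, since these libraries share arms and depth. NEAT1 was most like MALAT1 (r = 0.984), then CFLAR (0.978) and ENPP5 (0.976). MALAT1 was most like ENPP5 and CFLAR (both 0.989) and HERC1 (0.986). PCAT6 was most like SRC (0.997), TMC4 (0.994) and DIRAS1 (0.993). PCAT1 was most like FAM86C2P (0.981), ANP32B (0.972) and PPP1R35 (0.971), and DRAIC most like ERV3-1 (0.980), SCD5 (0.975) and HIST4H4 (0.973). PCA3 was most like TMEM128 (0.922), PPP3CB-AS1 (0.905) and GARS-DT (0.898). The number of genes with r above 0.95 was 444 for PCAT6, 377 for MALAT1, 88 for NEAT1, 56 for DRAIC, 47 for PCAT1 and 0 for PCA3.

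Set directly against each other, EZH2i and AKTi differed in 5 of 6 members, 4 higher and 1 lower with EZH2i, where 50.4% of all genes passed and 18% and 9.73% of lncRNA biotypes were higher and lower. MALAT1 was higher with EZH2i by 1.14, NEAT1 by 0.72, PCAT6 by 0.79 and DRAIC by 1.59, PCAT1 was lower by 1.39 (log2 fold change -1.39), and PCA3 differed by -0.11 (interval -0.89 to 0.68). With the combination against AKTi, 5 members were higher and 1 lower, where 64.2% of all genes passed and 32.6% and 10.7% of lncRNA biotypes were higher and lower. The changes were 1.81 for MALAT1, 1.11 for NEAT1, 1.23 for PCAT6, 1.61 for DRAIC, 1.33 for PCA3 and -1.01 for PCAT1. With the combination against EZH2i, 5 of 6 were higher and DRAIC was not called, where 46.7% of all genes passed and 17.5% and 6.77% of lncRNA biotypes were higher and lower.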

How the data were processed

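Polyadenylated RNA of C4.2B cells was measured in 12 libraries, 3 per arm. The authors aligned reads to hg38 with STAR and counted them on genes with HTSeq. Tool versions, annotation release and strandedness of counting were not given in the sources used here. The deposited values used are raw counts. The authors' DESeq2-normalized signal was found to be the count over a size factor for all 56994 gene names that occur once (tolerance 0.01 counts). The gene lengths are a deposited column.

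Genes passing edgeR 4.0.16 filterByExpr (minimum count 10, minimum total 15) in R 4.3.3 were scaled by TMM and tested with edgeR's quasi-likelihood test, with arm means fitted to the 12 libraries jointly and Benjamini-Hochberg adjustment at 0.05. The interaction is the log2 change with both agents less the sum of the log2 changes with each. Intervals are at 95%. On simulated counts (14995 genes) the test recovered 196 of 200 changed genes of the combination against DMSO with 13 false calls. For the interaction it recovered 163 of 200 with 3 false calls. The simulation gave all genes the same low spread and held far fewer changed genes than were called in the data. No gene with few counts was changed in it, so it does not give the recovery for members with few counts. Members under the filter were tested by exact permutation. Totals of 14133755 to 22276417 counts set the precision, and intervals of 0 counts cover counting error only.

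Named were all members, the nearest coding gene on either side and tested genes overlapping them, at most the 3 highest and 3 lowest called genes of each list for the combination against DMSO, and the 3 genes most alike (prior count 2, mean of at least 1 log2 CPM). Some genes that met this rule are not reported here. The members and lists were chosen with earlier results of these data known. Libraries of an arm differed beyond sampling noise (chi-square 2.58 to 7.8 per gene), and since they came from plates of 1 line, p-values measure the spread between plates. The alternatives tried were another tool (DESeq2 1.42.0), other scaling (upper quartile or library size), a looser filter (1 count summed over libraries) or a stricter one (10 counts per library), a fit without the arms not compared, leaving out single libraries, and a replicate block.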

Additional observations from a re-analysis of the deposited data

Results flagged for a closer look

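For 3 members the change with both agents differed from the sum of the single-agent changes, by the interaction term of edgeR's quasi-likelihood test with Benjamini-Hochberg adjustment. Over all genes 28.2% passed this test, and 4.14% and 4.74% of lncRNA biotypes passed with a positive and a negative sign. The interaction was 0.63 for PCAT1 (adjusted p = 0.0124), which had -0.25 with AKTi, -1.64 with EZH2i and -1.26 with the combination. The PCAT1 call was lost without EZH2i C (adjusted p = 0.0643) or combination B (0.0523). The interaction was -1.34 for PCAT6 (adjusted p = 0.000121), which rose in each arm. It was 0.43 for MALAT1 (adjusted p = 0.00809), with an adjusted p of 0.118 by DESeq2 and 0.0749 without combination C.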

How the results depend on the processing

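Of 42 log2 fold changes of members (6 genes in 7 comparisons), 28 kept their direction and their side of the threshold under every alternative run. With AKTi against DMSO, 2 members were called in the main test, 1 with DESeq2, and 1 to 3 when single libraries were left out (1 without DMSO C or AKTi A, and 3 without DMSO B or AKTi B, when NEAT1 passed). With the combination against EZH2i, 5 were called and 3 to 5 when single libraries were left out (3 without EZH2i C or combination B). With canonical transcript lengths, a choice made after seeing the data, 1 of 6 members kept its place in the order of levels. DRAIC, combination against EZH2i, was -0.0102 with a filter of at least 1 count and -0.14 to 0.13 over left-out libraries. Other uncalled values changed sign over left-out libraries: PCA3 with AKTi -0.11 to 0.46, DRAIC with AKTi -0.15 to 0.30, PCA3 with EZH2i -0.22 to 0.35, PCA3 in EZH2i against AKTi -0.234 to 0.058, and the DRAIC interaction -0.32 to 0.18. The median of imprinted genes was 0.15 by library size and 0.14 by upper quartile. Library size scaling moved the share of higher genes among those called from 50.8% to 61.3% with EZH2i, from 50% to 60.2% in the combination against AKTi and from 50.3% to 60.8% in EZH2i against AKTi. The replicate letters did not pair the samples (correlations of deviations -0.06 to 0.07 over 18 pairs), and with the replicate block no call of a member changed: 2, 5 and 6 members were called with AKTi, EZH2i and the combination against DMSO. Among neighbours and listed genes no call against DMSO turned direction with the other scalings. Depth limits PCGEM1, H19 and MEG3.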

Other observations

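HOTAIR, a HOX cluster lncRNA under the filter, was chosen for naming after its values were seen. It had 0 to 2 counts in DMSO, 0 in each AKTi library, 5 to 11 with EZH2i and 8 to 12 with the combination. ARLNC1, an androgen-regulated lncRNA, had a mean of 11.9 normalized counts in DMSO and 2.66 with EZH2i, and its log2 fold change with the combination was -0.47 (adjusted p = 0.445, edgeR).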
